A study of Mus musculus with 18 samples.

Results

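Chemokines are small secreted proteins that draw cells along a gradient, and their receptors are membrane proteins coupled to G proteins. The genes described here were taken by name from the scanner files: every gene name that follows the mouse chemokine or chemokine receptor nomenclature of the array's design, 53 of 27962 gene names, of which 35 are ligands and 18 are receptors. The rule uses names and no measured value, although this gene family was picked for description with earlier results of these data known. The array uses some older names: Cxcl4 is now Pf4, Cxcl7 is Ppbp, Cmkor1 is Ackr3 and Ccrl1 is Ackr4.

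The arrays compared cells of the mouse thyroid (C57BL/6, animals of both sexes, age not given in the sources used here) that were dispersed with enzymes, kept in culture for 2 days and sorted after Hoechst 33342 staining. The side population is the set of cells that pump this dye out and so stain weakly, with verapamil, which blocks the pumps, as the sorting control; the main population is the rest. CSP denotes the side population and CMP the main population of thyroids without surgery, and TSP and TMP denote the same populations of thyroids after partial thyroidectomy. The side populations had 6 arrays each and the main populations 3 each, called biological replicates by the submitters, each with sample RNA in Cy5 against a common Cy3 reference pooled from 10 tissues of Swiss Webster mice. All groups share the 2 days of culture, and whether an array held 1 animal or a pool is not given, so p-values measure the spread between these samples. Values below are log2 ratios of sample over reference. They place arrays in order for a gene and not genes in order for an array, and in RNA from sorted populations a change in the share of a cell type and a change in RNA per cell cannot be told apart.

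By their function the ligands fall into groups. CC ligands such as Ccl2 and Ccl7 act on monocytes through Ccr2, Ccl11 acts on eosinophils through Ccr3, Ccl3 and Ccl4 act on macrophages and T cells, CXC ligands with an ELR motif such as Cxcl1 and Cxcl5 act on neutrophils through Cxcr2, and Cxcl12, a ligand made by stromal and endothelial cells in many tissues, acts through Cxcr4 and is removed by the scavenging receptor Ackr3. Atypical receptors bind chemokines without the usual G protein signal.

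Libraries differed in more than their labels. TSP 1 and TSP 2 had a median correlation over 20427 genes of 0.949 with the main population arrays and of 0.696 with the other side population arrays. Spots well above background in Cy5 ranged from 38.8% to 72.0% of an array, and arrays lay on 5 slides that held unequal sets of groups. Markers for the follicular cell, the hormone-making cell of the thyroid, were well above background on all CMP arrays for 8 of 9 genes and on all CSP arrays for 1 of 9. Against CMP, CSP was higher for 8 of 9 endothelial and 8 of 10 fibroblast markers at an adjusted p under 0.05 (limma). It was lower for 7 of 7 epithelial and 7 of 9 follicular markers. Of all genes tested, 7.63% were higher and 7.26% lower. The epithelial markers were still well above background on all CSP arrays, 7 of 7, at a mean level of -1.40 to 2.48 against 3.60 to 4.07 in CMP. The counts of called members over the whole family are therefore given with all 18 arrays and without TSP 1 and TSP 2. Other results come from the fit of all 18 arrays unless stated.

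Of the 53 genes, 43 were tested because a probe exceeded the Cy5 background clearly (the scanner software's flag) on 3 arrays or more, 31 ligands and 12 receptors, and 21 were well above background on all 18. The 10 that were not tested were the ligands Ccl1, Ccl22, Ccl24 and Xcl1 and the receptors Ccr1, Ccr2, Ccr7, Ccr8, Ccr10 and Ccrl1. Ccr2, the main receptor of Ccl2 and Ccl7, was well above background on 0 of 18 arrays, and Ccr7, the receptor of Ccl19, on 2. Cxcr2, the receptor of Cxcl1 and Cxcl5, was not among the 53 gene names, so it was not read.

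In the comparison of side and main population without surgery, CSP had 9 chemokine genes higher and 7 lower than CMP. That is 16 of 43 tested genes, where 14.9% of all genes tested were called, 7.63% higher and 7.26% lower. At an unadjusted p under 0.05 there were 18 members, against 29.4% of all genes. The ligands accounted for 15 of 31 (8 higher and 7 lower) and the receptors for 1 of 12, Cmkor1. The median difference over the 43 genes was 0.10 and over all genes 0.06 on the log2 scale. After TSP 1 and TSP 2 were left out of the fit, 18 members were called (10 higher and 8 lower) against 19.3% of all genes (10.2% higher and 9.07% lower), the additions being Cxcl12 and Ccl20. With the arrays scaled to a common spread, 3 of the 16 stayed called with all arrays, Ccl11, Ccl3 and Ccl4, against 2.19% of all genes. The other 13 kept their direction and lost the call: adjusted p was 0.442 for Ccl2, 0.296 for Ccl7, 0.393 for Cxcl5, 0.778 for Cxcl1 and 0.230 for Cxcl4, and 0.0753 to 0.484 for Ccl6, Ccl8, Ccl19, Cxcl7, Cxcl14, Cxcl16, Cx3cl1 and Cmkor1. The groups did not overlap for 17 of 43 members with all arrays, against 19.9% of all genes.

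**Figure D1:**
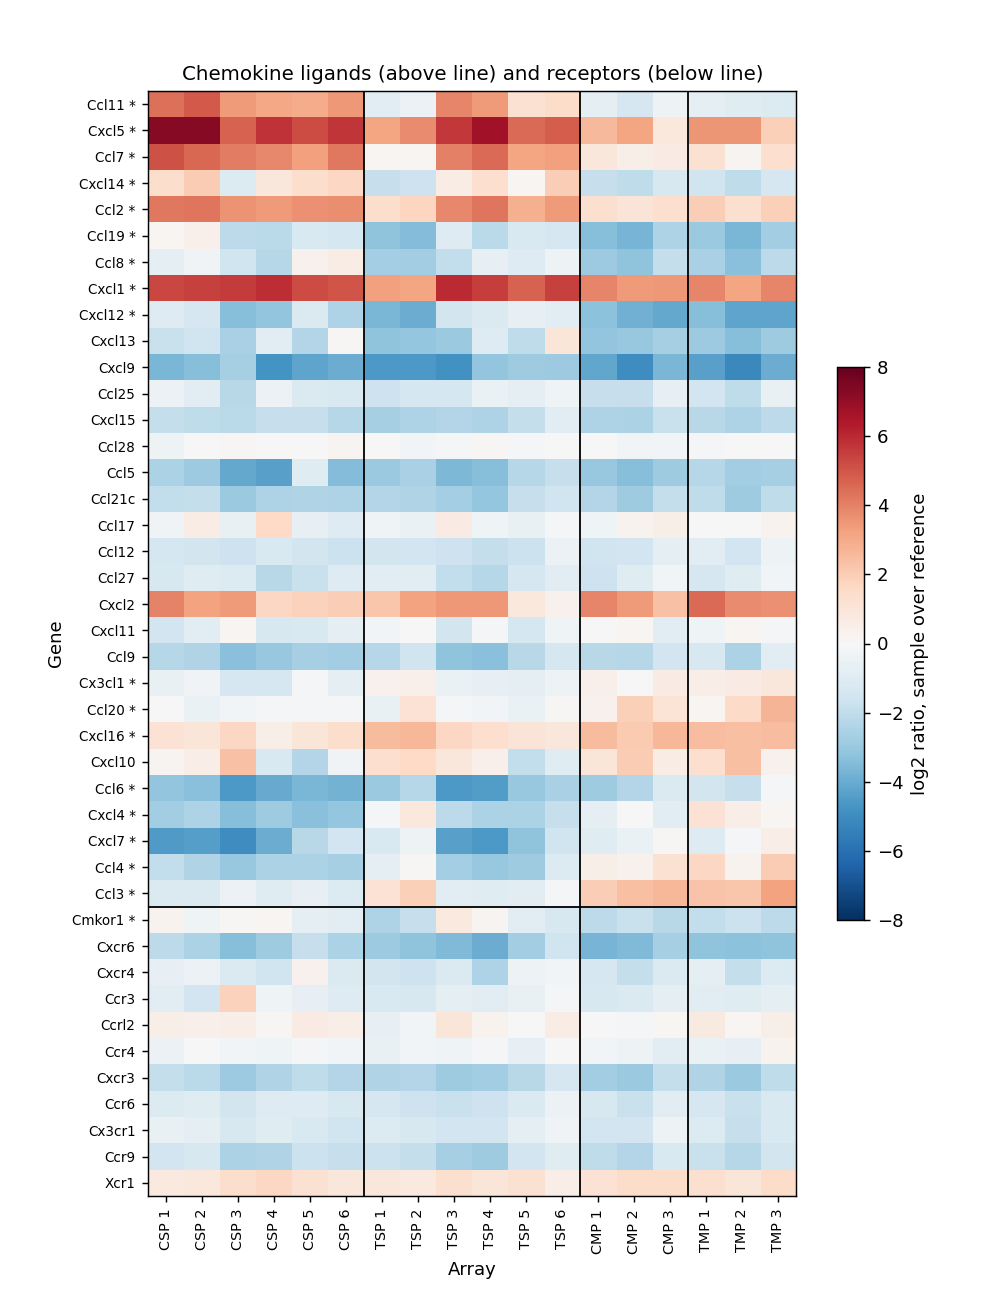
Log2 ratio of sample over reference for the tested genes described here (rows, ligands above the horizontal line and receptors below it, each ordered by CSP minus CMP) on the 18 arrays (columns, grouped as CSP, TSP, CMP and TMP). Asterisks mark the 18 genes called between CSP and CMP without TSP 1 and TSP 2; the receptor rows hold 1 asterisk, and the columns of TSP 1 and TSP 2 resemble those of CMP and TMP.

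Ccl2, Ccl7 and Ccl11, which lie side by side on chromosome 11, were higher in the side population. Ccl11 had the largest measured difference of the called members: CSP arrays ran from 2.95 to 4.91 (median 3.43), while CMP 1 to 3 read -0.71, -1.32 and -0.40. All 6 CSP arrays were above all 3 CMP arrays, by 4.51 ± 0.80 (SE), or 22.8-fold (limma, adjusted p = 0.00794). The probe was well above background on 2 of 3 CMP arrays and 1 of 3 TMP arrays, so both folds given for this gene compare measured values of which the lower ones are near the background.

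After surgery the Ccl11 values were 3.90, 3.42, 1.21 and 1.46 on TSP 3 to 6 and -0.89 and -0.50 on TSP 1 and 2, against -0.70, -1.0 and -1.10 in TMP. TSP 1 and 2 thus lay among the main population arrays and the other 4 above them. The difference was 2.37 ± 0.80 (SE) with all arrays (adjusted p = 0.251) and 3.43 ± 0.58 without TSP 1 and TSP 2 (10.8-fold, adjusted p = 0.000535).

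Ccl7 read 3.30 to 5.11 in CSP (median 4.17) and 0.93, 0.50 and 0.66 in CMP, a difference of 3.51 ± 0.77 (SE), 11.4-fold (adjusted p = 0.00913). On TSP 3 to 6 it read 4.02, 4.50, 3.15 and 3.28, on TSP 1 and 2 0.18 and 0.17, and in TMP 1.23, 0.25 and 1.37. After surgery the difference was 1.60 ± 0.77 with all arrays (adjusted p = 0.369) and 2.79 ± 0.41 without TSP 1 and TSP 2 (adjusted p = 0.00013). A second Ccl7 probe gave 3.75 for CSP minus CMP. Without CMP 2 the adjusted p of Ccl7 between CSP and CMP was 0.0513 while TSP 1 and TSP 2 were in the fit. That call was kept without each of the 16 arrays in turn once they were left out.

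Ccl2, the monocyte attractant MCP-1, was above the reference in every group. CSP ran from 3.43 to 4.28 (median 3.69) and CMP 1 to 3 read 1.30, 1.04 and 1.36, so the groups did not overlap, and the difference was 2.58 ± 0.48 (SE), 6.00-fold (adjusted p = 0.00794). After surgery TSP 3 to 6 read 3.81, 4.27, 2.87 and 3.43, TSP 1 and 2 1.41 and 1.70, and TMP 1.98, 1.30 and 1.94. The difference after surgery was 1.18 ± 0.48 with all arrays (adjusted p = 0.290) and 1.86 ± 0.31 without the 2 arrays (adjusted p = 0.000485).

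Ccl8, a further member of this row of genes, read -2.25 to 0.59 in CSP (median -0.52) and -2.92, -3.20 and -1.93 in CMP. The ranges overlapped because CSP 4 lay below CMP 3. The difference was 2.03 ± 0.62 (SE) (adjusted p = 0.0333), and the call was lost without any of CSP 1, CSP 2, CSP 5, CSP 6, CMP 1 or CMP 2 (adjusted p up to 0.146). TSP minus TMP was 1.68 ± 0.58 without TSP 1 and TSP 2 (adjusted p = 0.0644). Ccl12, between Ccl11 and Ccl8 on the chromosome, was not well above background on any CSP or TSP array, and CMP exceeded the bound so set by at least 1.12-fold, with adjusted p = 0.704.

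Ccl3 and Ccl4, which are best known from activated macrophages and lymphocytes, were lower in the side population. Ccl3 read 1.98, 2.43 and 2.65 in CMP and -1.16 to -0.46 in CSP (median -1.03), 9.65-fold lower in CSP (difference -3.27 ± 0.51, SE, adjusted p = 0.00794). It was well above background on 2 of 6 CSP arrays, so this fold rests partly on values near the background, and on all 3 CMP arrays. In TMP it read 2.28, 2.21 and 3.23, on TSP 3 to 6 -0.88, -0.95, -0.92 and -0.16, and on TSP 1 and 2 1.16 and 1.93. Even with TSP 1 and 2 all TSP arrays lay below all TMP arrays. The difference TSP minus TMP was -2.54 ± 0.51 with all arrays (adjusted p = 0.201). The probe was well above background on TSP 1 and 2 and on 0 of the 4 arrays TSP 3 to 6, so without the 2 the difference has a bound only. TMP was at least 10.4-fold higher than the lowest detected Cy5 signals of those 4 arrays (adjusted p of the fit 1.05e-06). Such bounds use the Cy5 channel alone, normalised between arrays, and are open to dye bias because no dyes were swapped.

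Ccl4 followed the same order of groups. CMP read 0.44, 0.37 and 1.23 and CSP -3.04 to -1.96 (median -2.55), a difference of -3.20 ± 0.58 (SE), 9.21-fold lower in CSP (adjusted p = 0.00794). The probe was well above background on 1 of 6 CSP arrays, on 1 of the 4 arrays TSP 3 to 6 and on all CMP and TMP arrays, so the differences of this gene compare measured values that lie near the background in the side population. TMP read 1.65, 0.31 and 2.06, TSP 3 to 6 -2.73, -3.05, -2.82 and -1.10, and TSP 1 and 2 -0.69 and 0.09. Side minus main after surgery was -3.06 ± 0.58 with all arrays (adjusted p = 0.190) and -3.77 ± 0.45 without TSP 1 and TSP 2 (adjusted p = 2.25e-05).

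Ccl6, a myeloid CC ligand of rodents, read -2.86, -2.35 and -1.17 in CMP and -4.60 to -3.14 in CSP (median -3.69). The groups did not overlap, yet the call was close to the threshold (difference -1.62 ± 0.52, SE, adjusted p = 0.0412) and was lost without any of 8 arrays, CSP 2 to 6 and CMP 1 to 3 (adjusted p up to 0.200). TMP read -1.48, -1.87 and -0.17, TSP 3 to 6 -4.57, -4.48, -3.00 and -2.62, and TSP 1 and 2 -2.98 and -2.30. Without TSP 1 and TSP 2 the difference TSP minus TMP was -2.50 ± 0.53 (adjusted p = 0.00326).

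Of 14 macrophage and pan-leukocyte markers tested, CSP was higher than CMP for 1 (Cd14, by 2.02) and lower for 2 (Cd68, by -1.19, and Lyzs, by -1.35), and the list's mean level was -3.10 to -2.44 in CSP and -2.50 to -2.09 in CMP. Of 10 lymphocyte markers and 5 neutrophil markers, 0 were called. Of all genes tested, 7.63% were higher in CSP and 7.26% lower. Without TSP 1 and TSP 2, TSP was higher than TMP for 1 of the 14 macrophage markers and lower for 5. In that comparison 7.68% of all genes were higher and 7.02% lower. The part of these leukocytes in the differences of Ccl3, Ccl4 and Ccl6 was not tested.

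**Figure D2:**
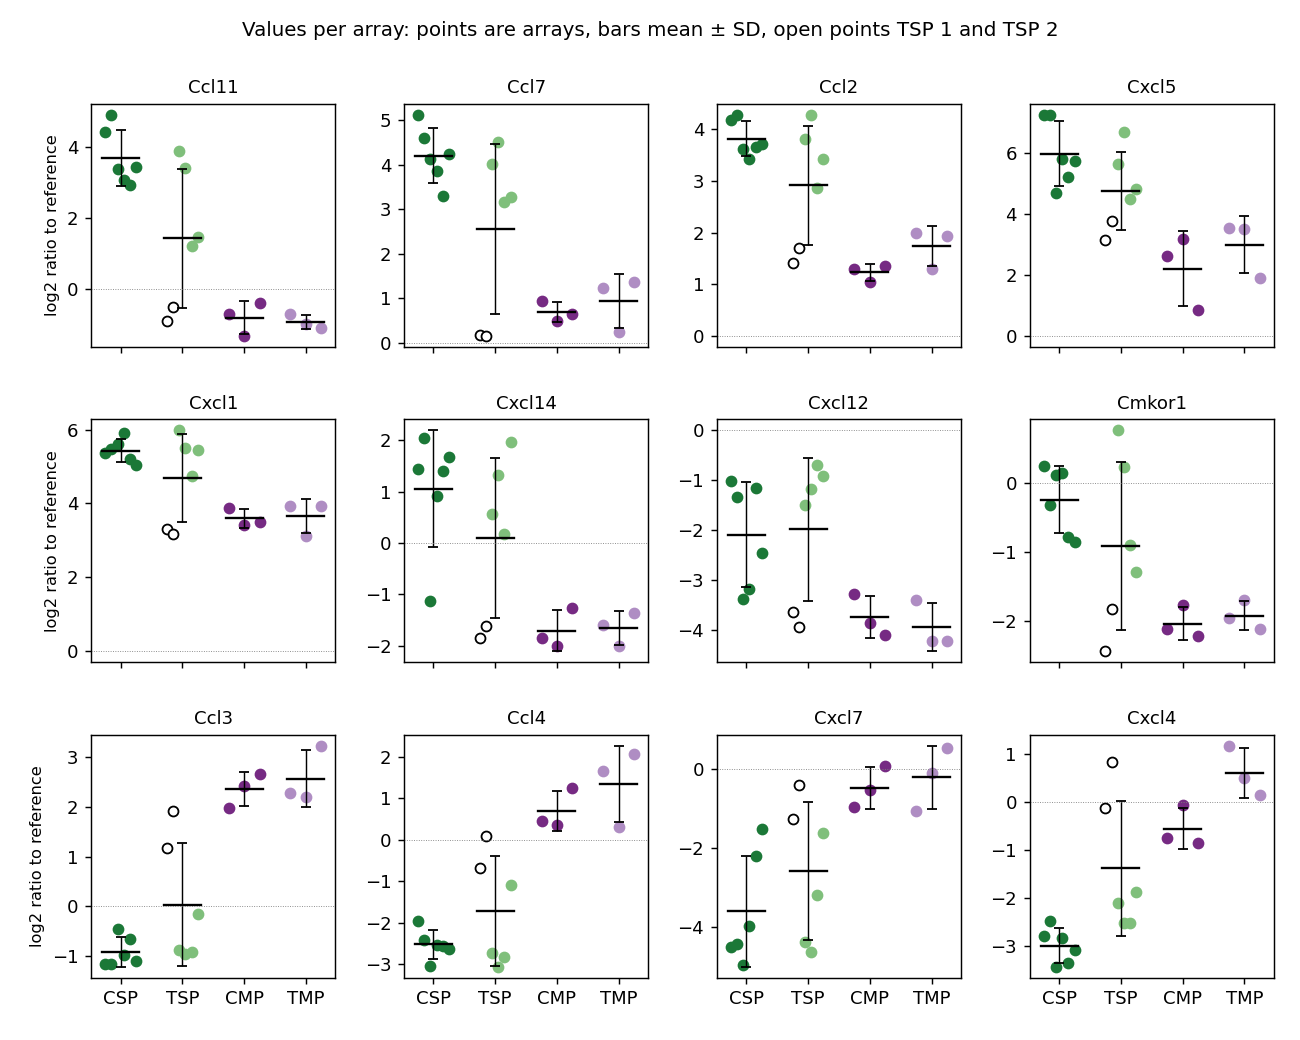
Log2 ratio to the reference (vertical axes, separate scales) of 12 genes on every array of CSP, TSP, CMP and TMP, with group mean ± SD over all arrays of the group. Open points are TSP 1 and TSP 2; in Ccl3 the 6 CSP arrays lie between -1.16 and -0.46 and the 3 CMP arrays between 1.98 and 2.65.

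Among the neutrophil-attracting CXC ligands with an ELR motif, Cxcl5 and Cxcl1 were higher and Cxcl7 lower in the side population, 3 of 5 tested. Of all genes, 14.9% were called. Cxcl5 read 4.70 to 7.27 in CSP (median 5.77) and 2.62, 3.18 and 0.83 in CMP, 3.79 ± 0.73 (SE) apart, or 13.8-fold (adjusted p = 0.00794). With surgery TSP 3 to 6 read 5.65, 6.69, 4.52 and 4.83 and TSP 1 and 2 3.14 and 3.77, against 3.56, 3.51 and 1.91 in TMP. After surgery the gap was 1.77 ± 0.73 with all arrays (adjusted p = 0.294) and 2.43 ± 0.69 without the 2 (adjusted p = 0.0226), and the latter call was lost without TSP 3, TSP 4 or TMP 3 (adjusted p up to 0.120).

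Cxcl1 had narrow ranges. CSP ran from 5.04 to 5.91 (median 5.42) and CMP read 3.89, 3.41 and 3.50, so the groups were apart, by 1.83 ± 0.49 (SE), 3.57-fold (adjusted p = 0.0188). The call was lost without CMP 1, CMP 2 or CMP 3 (adjusted p up to 0.0830) while TSP 1 and TSP 2 were in the fit, and kept without each of the 16 arrays in turn once they were left out. Of the operated thyroids, TSP 3 to 6 read 5.98, 5.50, 4.74 and 5.44, TSP 1 and 2 3.31 and 3.16, and TMP 3.92, 3.13 and 3.92, which gave 1.75 ± 0.30 without the 2 arrays (adjusted p = 0.000612). Cxcl2, the close relative next to Cxcl1, was not called: CSP ran from 1.69 to 3.98 and CMP from 2.34 to 3.88, a difference of -0.52 ± 0.68 (SE, adjusted p = 0.667), and TSP minus TMP was -1.96 ± 0.73 without TSP 1 and TSP 2 (adjusted p = 0.0845).

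Cxcl7 and Cxcl4 are the classic chemokines of platelet granules, and their genes are neighbours. Cxcl7 read -0.96, -0.54 and 0.09 in CMP and -4.95 to -1.52 in CSP (median -4.19). CSP 5 and CSP 6, at -2.19 and -1.52, were the highest of their group and still below all CMP arrays. The difference was -3.12 ± 0.87 (SE), 8.72-fold lower (adjusted p = 0.0224). The probe was well above background on 4 of 6 CSP arrays, so this fold rests partly on values near the background. Without CMP 1, CMP 2 or CMP 3 the call was lost while TSP 1 and TSP 2 were in the fit (adjusted p up to 0.0812). It was kept without each of the 16 arrays in turn once they were left out. TMP read -1.05, -0.10 and 0.53, TSP 3 to 6 -4.37, -4.62, -3.19 and -1.60, and TSP 1 and 2 -1.25 and -0.39, which gave -3.24 ± 0.78 without the 2 (adjusted p = 0.00822).

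Cxcl4 read -0.75, -0.06 and -0.84 in CMP and -3.42 to -2.47 in CSP (median -2.94). The difference was -2.44 ± 0.58 (SE), 5.42-fold lower (adjusted p = 0.0110). The adjusted p was 0.0637 without CMP 2 while TSP 1 and TSP 2 were in the fit. With these left out, the call was kept without each of the 16 arrays in turn. TSP 3 to 6 read -2.10, -2.51, -2.51 and -1.87 and TMP 1.17, 0.52 and 0.14, with TSP 1 and 2 at -0.12 and 0.85. TSP minus TMP was -1.99 ± 0.58 with all arrays (adjusted p = 0.251) and -2.86 ± 0.31 without the 2 (adjusted p = 6.47e-06).

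Along chromosome 5 (mouse build mm7, as the scanner files give probe positions), the order was Cxcl5 at chr5:90732453-90732512, Cxcl7 at chr5:90741218-90741277, Cxcl4 at chr5:90744523-90744582, Cxcl15 at chr5:90774196-90774255, Cxcl1 at chr5:90882059-90882118 and Cxcl2 at chr5:90894748-90894807. Cxcl5, 13.8-fold higher in CSP, lay 8706 bases from Cxcl7, 8.72-fold lower as measured, and Cxcl7 lay 3246 bases from Cxcl4. On chromosome 11 the genes that were higher and lower were in separate stretches: Ccl2, Ccl7, Ccl11 and Ccl8 lay between 82118723 and 82198240, and Ccl6, Ccl3 and Ccl4 between 83658400 and 83734514. Ccl5 and Ccl9, before Ccl6, were not called.

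**Figure D3:**
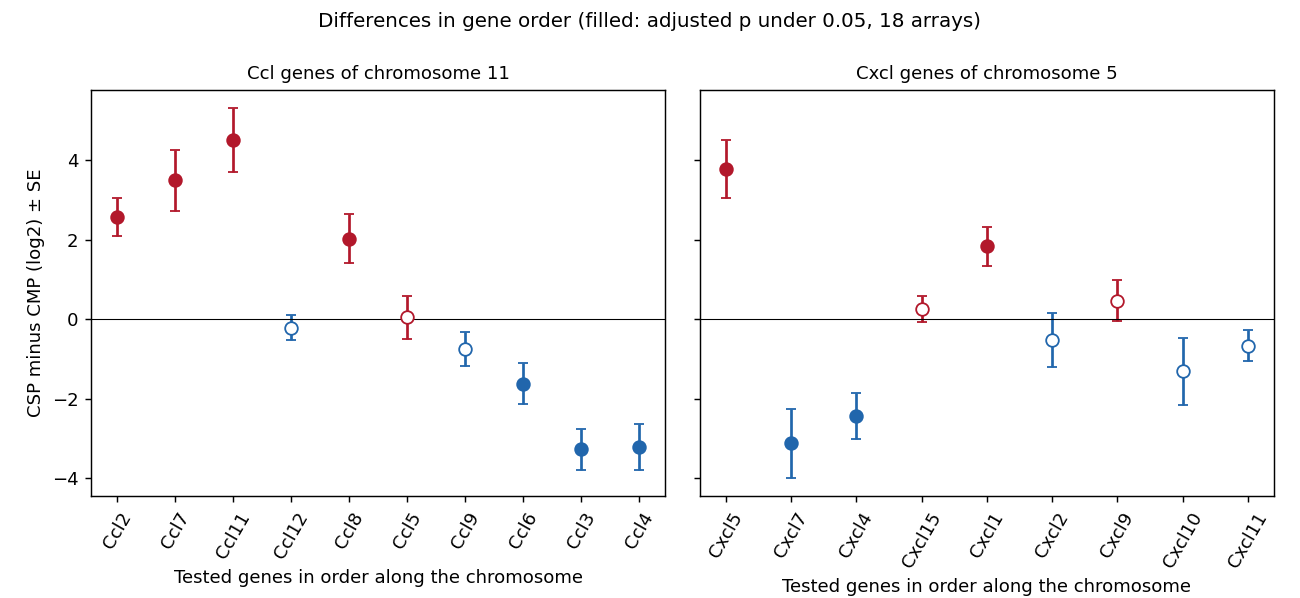
Difference CSP minus CMP (log2, ± SE, 18 arrays) of the tested genes in their order along chromosome 11 (left) and chromosome 5 (right), with equal spacing. Filled points passed an adjusted p of 0.05; on the left the filled points above 0 and those below 0 stand in separate stretches, and on the right Cxcl5 at 3.79 stands next to Cxcl7 at -3.12.

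The promoters of 4 genes of this stretch of chromosome 5, from RefSeq (GRCm38.p6, a later build than mm7), are shown because they hold a gene called higher, a gene not called and 2 called lower. Each line gives the 250 bases before the start of transcription, on the plus strand, 5′ to 3′, with matches to the kappa B motif (GGG, any 2 bases, TTTCC) or the interferon response core (GAAA, any 2 bases, GAAA) on either strand in capitals.
Cxcl7: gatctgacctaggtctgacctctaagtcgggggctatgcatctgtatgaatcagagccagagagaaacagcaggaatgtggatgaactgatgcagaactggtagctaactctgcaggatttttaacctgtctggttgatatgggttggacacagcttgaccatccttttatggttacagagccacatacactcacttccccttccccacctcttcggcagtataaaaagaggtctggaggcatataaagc
Cxcl4: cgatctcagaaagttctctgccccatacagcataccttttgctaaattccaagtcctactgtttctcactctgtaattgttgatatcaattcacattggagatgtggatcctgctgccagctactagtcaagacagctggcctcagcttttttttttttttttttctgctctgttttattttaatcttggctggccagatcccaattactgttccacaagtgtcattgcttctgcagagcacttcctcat
Cxcl1: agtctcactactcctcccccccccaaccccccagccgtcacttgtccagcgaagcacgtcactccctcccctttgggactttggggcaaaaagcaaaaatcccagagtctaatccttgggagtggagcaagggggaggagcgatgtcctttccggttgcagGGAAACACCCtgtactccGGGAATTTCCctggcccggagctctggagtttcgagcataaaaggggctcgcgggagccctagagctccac
Cxcl2: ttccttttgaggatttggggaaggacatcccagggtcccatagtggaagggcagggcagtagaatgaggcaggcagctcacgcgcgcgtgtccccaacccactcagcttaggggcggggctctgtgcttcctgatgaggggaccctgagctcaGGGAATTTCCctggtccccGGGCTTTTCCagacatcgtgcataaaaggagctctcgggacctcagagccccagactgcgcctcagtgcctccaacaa
Their positions are chr5:90768268-90768517 for Cxcl7 (Ppbp), chr5:90772185-90772434 for Cxcl4 (Pf4), chr5:90890995-90891244 for Cxcl1 and chr5:90903649-90903898 for Cxcl2. Cxcl1, higher in CSP, and Cxcl2, not called, each held 2 matches to the kappa B motif, and Cxcl7 and Cxcl4, both lower, held 0 matches to either motif. G or C made up 59.2% and 60% of the bases of Cxcl1 and Cxcl2, and 47.2% and 41.2% of Cxcl7 and Cxcl4. Of 36 members with a single entry in that resource, searched over the full 300 bases (250 before to 50 after the start), 5 held the kappa B motif (Cxcl1, Cxcl2, Ccl9, Ccl20 and Ccr3) and 3 the interferon response core (Ccl19, Cxcl10 and Cxcl14). Of all 32851 promoters there, 1.63% held the kappa B motif and 3.44% the interferon response core. Members were also counted by their call between CSP and CMP without TSP 1 and TSP 2. The kappa B motif was in 1 of 6 called higher, 1 of 6 called lower (Ccl20) and 3 of 17 not called. The interferon response core was in 2 of 6, 0 of 6 and 1 of 17 of these sets. A match shows the letters only, and binding was not measured.

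The CXC ligands expressed without stimulation, a group of 4 tested, had 2 called with all arrays, against 14.9% of all genes. Cxcl14 was higher and Cxcl16 lower in the side population. Cxcl14 read -1.12 to 2.06 in CSP (median 1.42) and -1.86, -2.01 and -1.26 in CMP. CSP 3, at -1.12, stood apart from the other CSP arrays, which began at 0.93, and was still above CMP. The difference was 2.77 ± 0.73 (SE), 6.83-fold (adjusted p = 0.0176). Without CMP 1 or CMP 2 the call was lost while TSP 1 and TSP 2 were in the fit (adjusted p up to 0.0796). It was kept without each of the 16 arrays in turn once they were left out. TSP 3 to 6 read 0.57, 1.34, 0.18 and 1.98, TSP 1 and 2 -1.85 and -1.63, and TMP -1.60, -2.01 and -1.36, which gave 2.67 ± 0.57 without the 2 (adjusted p = 0.00353).

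Cxcl16, a membrane-bound chemokine that binds Cxcr6 and also takes up oxidised lipoprotein, read 2.53, 2.09 and 2.64 in CMP and 0.46 to 1.69 in CSP (median 1.07). The groups did not overlap, and CSP was 2.48-fold lower (difference -1.31 ± 0.35, SE, adjusted p = 0.0194). A second probe gave -1.29. While TSP 1 and TSP 2 were in the fit, the call was lost without CMP 1, CMP 2 or CMP 3 (adjusted p up to 0.0811). It was kept without each of the 16 arrays in turn once they were left out. TMP read 2.48, 2.42 and 2.49 and TSP 3 to 6 1.66, 1.34, 1.05 and 0.90, a difference of -1.23 ± 0.28 (adjusted p = 0.00529) without TSP 1 and TSP 2, at 2.51 and 2.65.

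Cxcl12 differed among the side population arrays without surgery. CSP 1, 2 and 5 read -1.02, -1.34 and -1.15, CSP 6 -2.45, and CSP 3 and 4 -3.38 and -3.18. CMP read -3.28, -3.86 and -4.10, so the groups overlapped through CSP 3. CSP minus CMP was 1.66 ± 0.69 (SE) with all arrays (3.16-fold, adjusted p = 0.113), or 2.72 with the slide as a fixed block (adjusted p = 0.0301). Without TSP 1 and TSP 2 it was 1.66 ± 0.47 (adjusted p = 0.0183, but 0.0772 at most without CMP 2 or CMP 3). There the alternative settings, the slide block among them, gave 1.19 to 1.87. Scaling between arrays and the values deposited by the authors ended that call (adjusted p up to 0.122). After surgery TSP 3 to 6 read -1.49, -1.18, -0.69 and -0.92, all above TMP at -3.39, -4.22 and -4.22, with TSP 1 and 2 at -3.64 and -3.95. TSP minus TMP was 1.96 ± 0.69 with all arrays (adjusted p = 0.251) and 2.87 ± 0.51 without the 2 (7.32-fold, adjusted p = 0.000751). The second Cxcl12 probe gave smaller differences in the same direction, 0.71 for CSP minus CMP and 1.14 for TSP minus TMP without TSP 1 and TSP 2. The mean level of the fibroblast markers was -1.70 to 0.83 in CSP, -0.55 to 0.89 on TSP 3 to 6 and -3.88 to -3.23 in CMP; their part in the Cxcl12 values was not tested.

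Of 7 homing ligands of lymphoid tissue tested, 1 was called between CSP and CMP, against 14.9% of all genes. Without TSP 1 and TSP 2 it was 2 of 7, against 19.3%. Ccl19, which binds Ccr7, read -2.14 to 0.43 in CSP (median -1.30) and -3.39, -3.75 and -2.44 in CMP. It was 2.15 ± 0.61 (SE) higher in CSP (adjusted p = 0.0249). While TSP 1 and TSP 2 were in the fit, the call was lost without CSP 1, CMP 1 or CMP 2 (adjusted p up to 0.122). With these 2 left out, it was kept without each of the 16 arrays in turn. TSP 3 to 6 read -1.03, -2.14, -1.22 and -1.32, TSP 1 and 2 -3.24 and -3.44 and TMP -2.98, -3.63 and -2.79, with a difference of 1.71 ± 0.55 without the 2 (adjusted p = 0.0456), which 10 of 16 single arrays could end. A second Ccl19 probe gave 1.47 for CSP minus CMP, and the Ccl19 and Ccl21 genes have near-identical copies in the mouse that the probes may not separate. Ccl21c read -2.95 to -1.90 in CSP and -2.36, -2.83 and -1.88 in CMP, a difference of -0.01 ± 0.33.

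Ccl20, the ligand of Ccr6, was not well above background on any CSP array and was so on 3 of 3 CMP arrays, at 0.32, 1.91 and 1.06. Against the bound set by the lowest detected signals CMP was at least 1.54-fold higher (adjusted p = 0.0619 with all arrays and 0.0327 without TSP 1 and TSP 2). TMP read 0.18, 1.51 and 2.70 and TSP 3 to 6 -0.15, -0.22, -0.51 and 0.08, with TSP 1 and 2 at -0.62 and 1.17. It was well above background on 2 of 3 TMP arrays and 0 of the 4 arrays TSP 3 to 6, and TMP was at least 1.79-fold higher than these (adjusted p of the fit without TSP 1 and TSP 2 0.0144). CSP 2, CMP 2 or CMP 3 ended the call between CSP and CMP, and TMP 2 or TMP 3 that between TSP and TMP, when left out (adjusted p up to 0.228 and 0.0982).

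Cx3cl1, or fractalkine, a membrane-tethered chemokine, read 0.40, 0.02 and 0.64 in CMP and -1.35 to -0.07 in CSP (median -0.67), 2.12-fold lower in CSP (difference -1.08 ± 0.32, SE, adjusted p = 0.0285). The call was lost without CSP 3, CSP 4 or any CMP array (adjusted p up to 0.107). TMP read 0.50, 0.64 and 0.92 and TSP 3 to 6 -0.55, -0.65, -0.70 and -0.41, all below TMP, as were TSP 1 and 2 at 0.33 and 0.43. The difference was -0.95 ± 0.32 with all arrays (adjusted p = 0.251) and -1.26 ± 0.30 without the 2 (adjusted p = 0.00657).

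The interferon-induced ligands of Cxcr3 were not called, 0 of 3, against 14.9% of all genes. Cxcl9 read -4.79 to -2.63 in CSP and -4.13, -4.99 and -3.63 in CMP (difference 0.47 ± 0.51, SE, adjusted p = 0.594). Cxcl10 was spread widely among the CSP arrays, from -2.34 on CSP 5 to 2.36 on CSP 3, and read 0.98, 2.04 and 0.57 in CMP (difference -1.31 ± 0.85, adjusted p = 0.334). Cxcl11 differed by -0.67 ± 0.39 (adjusted p = 0.276). Ccl5, known as RANTES, read -4.32 to -0.98 in CSP and -3.04, -3.42 and -2.85 in CMP, and its 2 probes differed in sign, at 0.05 and -0.43, and the brighter one was not called (adjusted p = 0.967). Cxcl13, which draws B cells, was higher on all 6 CSP arrays (-2.57 to 0.09) than on the CMP arrays (-3.14, -3.02 and -2.67) and was not called (1.42 ± 0.72, SE, adjusted p = 0.206). The remaining tested ligands were not called either. Ccl9 differed by -0.74 (adjusted p = 0.264). Ccl17 differed by -0.19, Ccl25 by 0.41, Ccl27 by -0.46, Ccl28 by 0.09 and Cxcl15 by 0.26, with adjusted p-values of 0.480 to 0.817. Other Ccl25 probes gave 0.35 and -0.29. Over all genes tested the median size of the difference was 0.39.

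Cmkor1 was the receptor that was called. It encodes Ackr3, the atypical receptor that binds and clears Cxcl12. CSP ran from -0.85 to 0.25 (median -0.10) and CMP read -2.12, -1.77 and -2.23, without overlap, 1.80 ± 0.51 (SE) apart or 3.48-fold (adjusted p = 0.0249). While TSP 1 and TSP 2 were in the fit, the call was lost without CMP 1, CMP 2 or CMP 3 (adjusted p up to 0.0900). It was kept without each of the 16 arrays in turn once they were left out. With the slide as a fixed block the difference was 1.38 (adjusted p = 0.0527), or 0.90 without TSP 1 and TSP 2 (adjusted p = 0.0162). TSP 3 and 4 read 0.76 and 0.24, TSP 5 and 6 -0.90 and -1.30, TSP 1 and 2 -2.44 and -1.83, and TMP -1.96, -1.70 and -2.12. TSP minus TMP was 1.02 ± 0.51 with all arrays (adjusted p = 0.402) and 1.63 ± 0.41 without the 2 (adjusted p = 0.0116).

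The other receptors were not called. Cxcr4, the signalling receptor of Cxcl12, read -1.58 to 0.35 in CSP and -1.36, -1.88 and -1.18 in CMP, a difference of 0.69 ± 0.45 (SE, adjusted p = 0.340) on its brighter probe and 0.68 on the other. Cxcr3 differed by 0.24 ± 0.33 and Cx3cr1, the receptor of fractalkine, by 0.10 ± 0.32, where a second Cx3cr1 probe gave -0.07. Ccrl2, an atypical receptor that presents chemerin, differed by 0.41 ± 0.28 (adjusted p = 0.352). Ccr3 differed by 0.63 on its brighter probe and by -0.11 on the other. Ccr4 differed by 0.27, Ccr6 by 0.14, Cxcr6 by 0.76 and Xcr1 by -0.21, and Ccr9 did not differ to 2 decimals. Leukocyte receptors were near the background on many arrays: Cxcr3 was well above it on 14 of 18, Cxcr6 and Cx3cr1 on 9, Ccr3 on 5 and Ccr4 on 3.

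With surgery the same comparison gave no call when all arrays were used. TSP minus TMP called 0 of 43 members at an adjusted p under 0.05 (limma), as it called 0% of all genes; at an unadjusted p under 0.05 it held 14 members, against 13.7% of all genes, and 5 members did not overlap between the groups, against 3.83%. Once TSP 1 and TSP 2 were left out, 17 were called, 9 higher and 8 lower, against 14.7% of all genes (7.68% higher and 7.02% lower). At an unadjusted p under 0.05 there were 21, against 26.1%, and 19 of 43 did not overlap against 23.4%. All 17 were among the 18 called between CSP and CMP in that fit and had the same direction in both, and the 1 not called again was Ccl8 (1.68). Of the 3940 genes of the whole array called between CSP and CMP, 99.7% had the same direction in both comparisons and 2558 were called in both. The fits share their estimate of spread but no arrays.

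The 18 members called between CSP and CMP in that fit were used to place each array between the CSP mean (0) and the CMP mean (1). The median position was 0.997 for TSP 1 and 1.04 for TSP 2, with 16 and 18 of 18 members closer to CMP. The arrays TSP 3 to 6 lay at 0.01, -0.06, 0.19 and 0.25, and TMP at 0.96, 1.12 and 1.07.

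**Figure D4:**
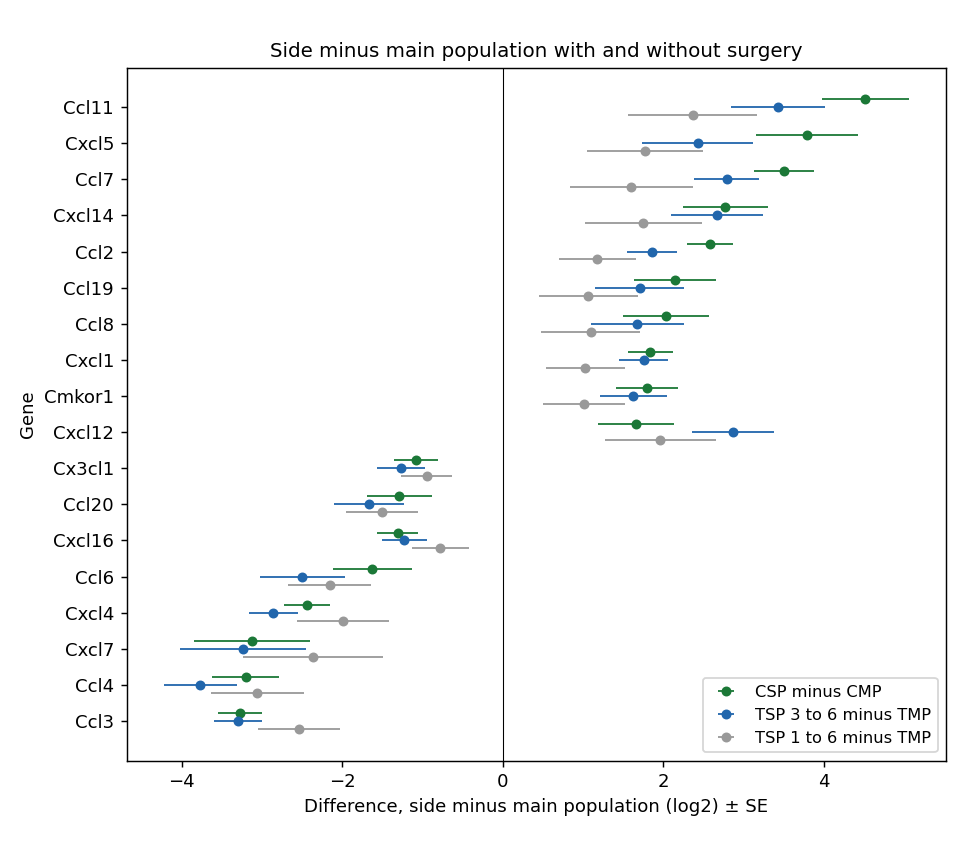
Difference of side minus main population (log2, horizontal axis, ± SE) for the 18 genes called between CSP and CMP without TSP 1 and TSP 2. Green points are CSP minus CMP, blue points TSP 3 to 6 minus TMP and grey points TSP 1 to 6 minus TMP; every gene keeps its side of 0, and the blue point of Ccl11 is at 3.43 where the grey one is at 2.37.

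Within a population, the comparison of thyroids with and without surgery called no member unless the slide was a block or the fit was kept to slide 1. TSP minus CSP called 0 of 43 with all arrays (0% of all genes), and 5 members had an unadjusted p under 0.05 against 9.1% of all genes: Ccl11 (-2.27), Ccl7 (-1.65) and Ccl2 (-0.90) were lower after surgery and Cxcl4 (1.61) and Ccl3 (0.95) higher. Leaving out TSP 1 and TSP 2 gave 0 called and 3 with an unadjusted p under 0.05, against 3.43%: Ccl11 (-1.21 ± 0.49, SE), Cxcl12 (1.02 ± 0.43) and Cxcl4 (0.74 ± 0.26), each with adjusted p = 1.00. With the slide as a fixed or random block and all arrays, Cxcl4 was called, higher in TSP by 1.84 or 1.77, against 4.41% or 1.18% of all genes. With the slide as a fixed block and without TSP 1 and TSP 2, 0 members were called, against 0.0881% of all genes. Within slide 1, which holds CSP 1, CSP 2, TSP 1 and TSP 2, 25 members were called against 40.8% of all genes. The groups overlapped for all 43 members with all arrays (0.455% of all genes did not overlap) and without the 2 (0.788%). With all arrays the same side-population samples enter TSP minus TMP and TSP minus CSP.

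TMP minus CMP called 0 of 43 (0% of all genes), with 0 at an unadjusted p under 0.05 against 0.122%. Cxcl4 differed most of the 43, by 1.16 ± 0.66 (SE), and all 3 TMP arrays (1.17, 0.52 and 0.14) were above all 3 CMP arrays (-0.75, -0.06 and -0.84). Ccl5 was the other gene without overlap, at 0.52 ± 0.63, so 2 of 43 members did not overlap against 2.87% of all genes, and the same count without TSP 1 and TSP 2, against 2.88%. In that fit 1 member, Cxcl4, had an unadjusted p under 0.05 (limma), against 0.152% of all genes. Same-numbered CMP and TMP arrays shared a slide and deviated together, so they were also compared in pairs. With the replicate block and only these 6 arrays in the fit, Cxcl4 differed by 1.16 ± 0.21 (adjusted p = 0.129), Ccl6 by 0.96 ± 0.18 (adjusted p = 0.129) and Cxcl5 by 0.78 ± 0.18 (adjusted p = 0.247), and 0 members were called while 9 had an unadjusted p under 0.05 (limma), against 6.00% of all genes. The interaction, the difference between the 2 side-minus-main comparisons, called 0 members with and without TSP 1 and TSP 2, and 0 had an unadjusted p under 0.05, against 1.08% and 0.592% of all genes.

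Slides held unequal sets of groups, so called members were also read within them. On slide 4, with CSP 5, CSP 6 and CMP 2, the differences of Ccl11, Ccl7, Ccl2 and Cxcl5 were 4.52, 3.27, 2.64 and 2.30, and those of Ccl3, Ccl4, Cxcl4 and Cxcl7 were -3.30, -2.96, -3.15 and -1.32, each in the direction found over all arrays. With 1 residual degree of freedom 0 members were called there by limma and 21 had an unadjusted p under 0.05, against 21.4% of all genes. On slide 5, with TSP 5, TSP 6 and TMP 3, the differences of Ccl11, Ccl7, Cxcl12 and Cxcl5 were 2.43, 1.85, 3.42 and 2.76, and those of Ccl3, Ccl4 and Cxcl7 were -3.77, -4.02 and -2.93, with 6 members called against 1.40% of all genes. With the slide as a fixed block and all arrays 22 members were called between CSP and CMP, 12 higher and 10 lower, against 28.2% of all genes, of which 61.6% were higher. Between TSP and TMP 6 were called, all lower, against 1.097% of all genes, of which 71.4% were higher.

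Genes that act with chemokines were read from a list outside the name rule. Their counts compare CSP with CMP over all arrays, where 7.63% of all genes were higher and 7.26% lower. Of 4 tested atypical receptors and other ligands, CSP was higher for Darc and Ccbp2 and lower for Cd74. Darc, now Ackr1, the atypical receptor of venular endothelium that takes up many CC and CXC ligands, read 2.85 to 5.00 in CSP and -2.11, -2.13 and -1.46 in CMP, a difference of 5.85 ± 1.09 (SE, 57.6-fold, adjusted p = 0.00794). TSP 3 to 6 read 4.33, 3.18, 3.53 and 3.04 and TSP 1 and 2 -1.79 and -1.86. Ccbp2, now Ackr2, which clears inflammatory CC ligands, was higher by 1.73 (adjusted p = 0.0285). It read -1.62 and -1.50 on TSP 3 and 4, 0.66 and 0.19 on TSP 5 and 6, and -1.68, -1.71 and -1.41 in TMP.

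Of 14 cytokines and transcription factors that induce chemokines, 1 was higher and 3 were lower in CSP. Il6, a cytokine of inflamed stroma, was 14.9-fold higher (3.90 ± 0.77, SE, adjusted p = 0.00794), and Il1b, Il1a and Tnf, cytokines of activated macrophages among other cells, were lower. All 3 were well above background on all CMP arrays. In CSP Il1b was so on 0 of 6 arrays, and CMP was at least 9.55-fold higher, while Il1a (measured difference -2.33) and Tnf (-2.55) were so on 1 of 6 arrays each. Of 21 signalling genes 6 were higher, among them Elmo1 (2.27), Gng2 (1.99) and Rgs2 (1.86), and 2 were lower, Adrbk2 (-2.36) and Ptk2b (-1.10). Of 7 genes that process or display chemokines, 2 were lower: Dpp4 (-1.55), a peptidase that trims the ends of many chemokines, and Sdc4 (-2.81), a heparan sulfate proteoglycan. Without TSP 1 and TSP 2 the counts higher and lower were 2 and 3 of 14, 7 and 3 of 21, and 1 and 2 of 7. Of all genes, 10.2% were then higher and 9.07% lower. The mean level of the endothelial markers was 0.64 to 2.00 in CSP and -2.10 to -1.50 in CMP, and its part in these differences was not tested.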

How the data were processed

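RNA of 18 sorted cell samples was hybridised on 2-colour 60-base Agilent arrays. Per the file headers the authors deposited Feature Extraction output (version 9.5.1.1, and 8.5.1.1 per the submitters' processing notes) with mean and background intensity per channel, processed intensity, and log10 ratios of Cy5 over Cy3. The authors also deposited a table of log2 values of 33040 probes, whose centring is not stated. Only 10 of its 18 columns matched best with the array of the same name, so it served as an alternative.

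Here limma 3.58.1 in R 4.3.3 corrected the intensities with normexp (offset 50) and applied loess within each array, giving control spots a weight of 0 and leaving out outlier spots. Each gene was represented by its brightest probe by mean intensity among probes flagged above the Cy5 background on 3 arrays or more, which gave 20427 genes. Group means of all 4 groups were fitted together, and p-values were adjusted over all genes by the Benjamini-Hochberg method, with calls at 0.05. The scripts were tested on simulated data. The gene family, the lists and the tests were chosen with earlier results of these data known; within the family, members follow from their names alone. Members are named, except for a result not reported here, with full values for the largest differences in each direction and for ligand and receptor pairs. Same-numbered CMP and TMP arrays were treated as pairs in an added fit, since their deviations correlated at 0.67, 0.74 and 0.81. CSP and TSP arrays were not paired (-0.05 to 0.46). Alternatives covered background correction, scaling, filters, probe choice, slide, pairing and leaving out arrays. The number of arrays limits the precision.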

Additional observations from a re-analysis of the deposited data

Results flagged for a closer look

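In 3 of 86 sets of a gene and a group of 6 arrays, 1 array lay far from the others; chance alone gives about 1 such set in 20. Cxcl14 read -1.12 on CSP 3, where the nearest CSP array read 0.93. Ccr3, the receptor of Ccl11, read 1.86 on CSP 3 and -0.34 on the nearest CSP array, and its probe was well above background on 3 of 6 CSP arrays. Ccl12 read -0.47 on TSP 6 and -1.45 on the nearest TSP array, with no TSP array well above background.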

How the results depend on the processing

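Of the values for single genes under an alternative setting, 918 kept their direction and side of the threshold. Another 133 kept the direction and lost the call, and none of these reversed. Many of these settings could not reverse a difference, because they change only the estimate of spread. Leaving out an array of a group outside the comparison is 1 such setting. The 16 members called between CSP and CMP became 8 with the replicate block (9.83% of all genes), 3 with scaling between arrays (2.19%) and 0 within slide 4 (0%). Leaving out 1 array gave 5 to 17. The lowest counts were 5 without CMP 2 (2.80% of all genes), 7 without CMP 1 (5.64%) and 10 without CMP 3 (10.3%). Scaling between arrays lowered the share of higher genes among all calls from 51.2% to 39.5%, and the slide as a fixed block raised it to 61.6%. Without TSP 1 and TSP 2 the 18 calls became 6 with scaling (9.85% of all genes) and 0 within slide 4, and 17 with the replicate block. In that fit, leaving out a single array could still end the calls of Ccl6, Ccl8, Ccl20, Cx3cl1 and Cxcl12 between CSP and CMP. Between TSP and TMP, 0 calls became 6 with the slide as a fixed block (1.097%), 2 as a random block (0.049%) and 6 within slide 5 (1.40%). They became 17 without TSP 1 and TSP 2 (14.7%) and 19 with the slide block added (15.7%). Leaving out 1 array gave 0 to 6, with 5 without TSP 1 (2.51%) and 6 without TSP 2 (3.02%). The 17 calls without both became 11 with scaling (12.1%), 6 within slide 5 and stayed at 17 with the replicate block. The authors' values gave 0 (0.192%), with their columns TSP 1 and TSP 2 left out by name; their column TSP 4 matched the scanner file of TSP 2 best, so this setting did not leave out both arrays. Between TSP and CSP, 0 calls became 1 with the slide as a fixed (4.41%) or random block (1.18%, Cxcl4 in both) and 25 within slide 1 (40.8%). They stayed at 0 with the slide as a fixed block once TSP 1 and TSP 2 were left out (0.0881%). The cause of these changes was not tested, beyond the fewer arrays in the fits within slides. The comparisons of TMP with CMP and of the interaction gave 0 calls under every setting fitted; TMP minus CMP within slide 2, with 1 array per group, had no test. Of 43 tested members 21 were well above background on all 18 arrays, so values of the others near background have little room to fall.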
